A study of Mus musculus with 24 samples.

Results

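Fasted livers lacking both Cpt2 and Ppara (Cpt2 Ppara KO, 4 libraries) were compared with fasted livers lacking Ppara alone (Ppara KO, 4 libraries), which, if every library carries the genotype of its label, gives the change with loss of Cpt2 where Pparα is missing from both groups. The 8 libraries were chosen by their genotype labels, out of 24 libraries in 6 genotype groups of 4, and all 35275 genes of the count table were examined. The mice were C57BL/6 males, 8 to 10 weeks old and fasted for 24 h, and the label of the double mutant gives its genotype as Cpt2 L-/- with Ppara KO. For the Cpt2 L-/- mice of the study, Cpt2 was deleted by Cre under the albumin promoter, which acts in hepatocytes, so that Cpt2 stays intact in other liver cells. The study's text does not describe the 8 libraries used here, and neither it nor the labels state how Ppara was deleted, whether the groups were littermates, or whether each library came from a separate mouse. If they did not, the p-values measure only the spread between these libraries, which may be technical. Control livers (labelled wild type, floxed littermates without Cre in the study) and Cpt2 L-/- livers, 4 libraries each, were used to set the same loss of Cpt2 beside it when Ppara is present.

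Carnitine palmitoyltransferase 2, encoded by Cpt2, sits on the inner mitochondrial membrane and turns imported long-chain acylcarnitines back into acyl-CoA, so that without it the liver cannot burn long-chain fatty acids in mitochondria. Pparα is a nuclear receptor that binds fatty acids, pairs with a retinoid X receptor, and during fasting switches on genes of mitochondrial, peroxisomal and microsomal fatty acid oxidation, ketone body synthesis and fatty acid binding. Fatty acids that are not oxidized are themselves ligands of this receptor. The Ppara KO background therefore leaves the other receptors of the family, Ppard and Pparg, and signals that do not pass through Pparα.

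Values are given below as CPM, the read count of a gene relative to the TMM-scaled size of its library, in the order of replicates 1 to 4. Fold changes are on the log2 scale, from Ppara KO to Cpt2 Ppara KO, and a gene is called where the adjusted p-value of the edgeR quasi-likelihood test is under 0.05. Ppara (chromosome 15 from 85734983 to 85802819, GRCm38) was at 45.2, 13, 13 and 38.1 CPM in Ppara KO and at 91.9, 26.2, 46.2 and 41.2 CPM in Cpt2 Ppara KO, against 256 ± 29.5 CPM (SD, n = 4) in control. All 8 libraries were thus under the lowest control library (213 CPM), and Cpt2 Ppara KO replicate 1 was the highest of them. In the library with this label, 32 of 54 Pparα targets also reached the lowest control library, as described below. Whether it carries the labelled genotype was not tested, so it is named by its label only, and the main results are also given without it. Cpt2 (chromosome 4 from 107903981 to 107923610) was at 96.1, 38.0, 50.9 and 47.4 CPM in Ppara KO and at 126, 39.1, 31.7 and 37.4 CPM in Cpt2 Ppara KO. Its log2 fold change was −0.01 (SE 0.44, adjusted p = 0.989) and −0.70 without Cpt2 Ppara KO replicate 1 (adjusted p = 0.202). A count over the whole gene does not resolve the loss of single exons, and Cpt2 was likewise at 92.3 ± 10.1 CPM in Cpt2 L-/- and 97.6 ± 6.84 CPM in control livers, so it does not check the label.

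Total counts were 15021749 to 20371204 in Ppara KO and 14470968 to 18940002 in Cpt2 Ppara KO. Cpt2 Ppara KO replicate 1 stood apart from the other 7 libraries. On the first principal component, which held 47.9% of the variance, it lay at −89.9, the other Cpt2 Ppara KO libraries between −31.6 and −13.8, and Ppara KO between 9.8 and 56.5. Ppara KO replicates 2 and 3 lay apart from replicates 1 and 4 on the second component. Gene length moved with the groups as well. The Spearman correlation across genes between length and fold change was −0.409, and in 10 bins of genes by length the median log2 fold change went from 0.68 in the shortest genes to −0.47 in the longest. Genes of one library share its RNA, so these values describe the libraries and carry no test. The part of length or RNA quality in the gene results was not tested. The count of calls, the list counts that it moved most, and the named calls that it ended or moved most are also given with the length trend of every library removed.

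**Figure D1:**
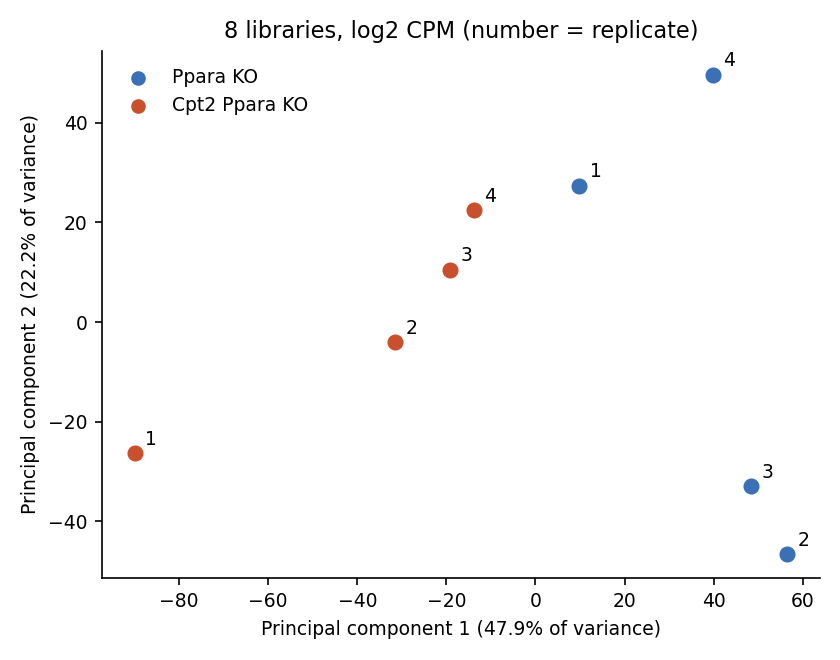
Principal components of log2 CPM of 12784 genes, with each point 1 library and its replicate number beside it. Cpt2 Ppara KO replicate 1 lies far to the left at −89.9, and Ppara KO replicates 2 and 3 lie below replicates 1 and 4.

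**Figure D2:**
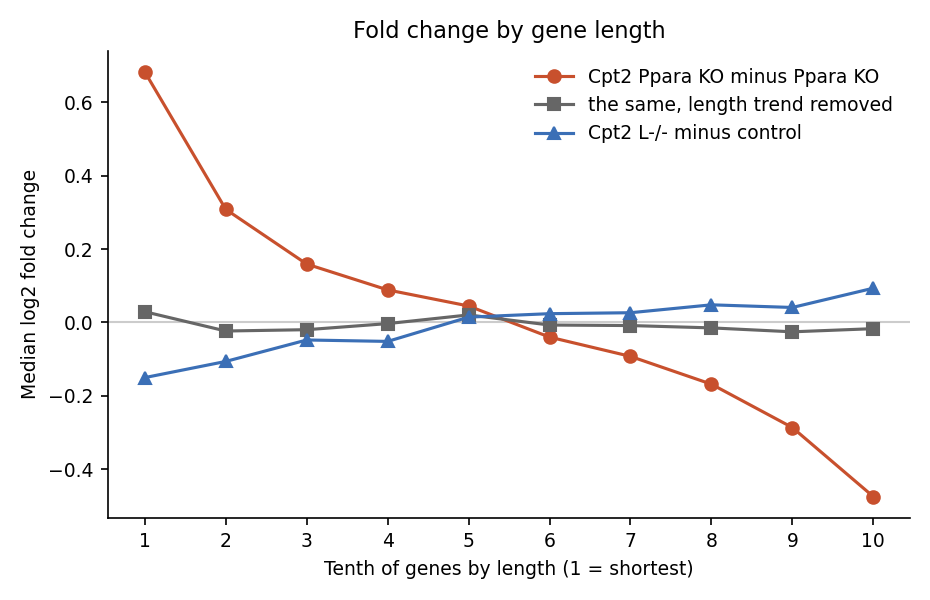
Median log2 fold change (y axis) of 10 equal bins of genes by length (x axis, 1 = shortest), for Cpt2 Ppara KO against Ppara KO before and after removal of the length trend and for Cpt2 L-/- against control. The first line falls from 0.68 to −0.47, and the second stays close to 0.

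The defining genes of hepatocytes were present in all 8 libraries. The summed level of 8 hepatocyte markers was 68300 to 91400 CPM in Ppara KO and 46400 to 66200 CPM in Cpt2 Ppara KO, without overlap. The sum of 12 Kupffer cell and macrophage markers was 327 to 454 CPM against 471 to 625 CPM, with 371 to 586 CPM in control. That of 8 markers of lipid-associated macrophages was 59.4 to 164 CPM against 144 to 262 CPM. The sums for endothelial cells (353 to 435 against 174 to 340 CPM), stellate cells (282 to 304 against 205 to 271 CPM) and cholangiocytes (26.4 to 48.6 against 14.4 to 21.7 CPM) were lower in Cpt2 Ppara KO, also without overlap. Single called genes weighed on some of these sums. Without Reln the stellate sums overlapped (198 to 230 against 196 to 245 CPM), without Cd63 those of lipid-associated macrophages were 48.6 to 153 against 74.3 to 99.2 CPM, and without Sox9 those of cholangiocytes were 19.3 to 30.1 against 13.2 to 19.2 CPM. The median log2 fold change of the 8 endothelial markers was −0.48, and −0.01 with the length trend removed and without replicate 1. In the main fit 1 of them was higher and 3 were lower at an unadjusted p-value under 0.05, where 15.1% and 14.8% of all genes were. In bulk liver, fewer cells of a type and less RNA per cell cannot be told apart. The adipocyte markers Lep and Retn were at 0 in all 8 libraries.

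Between Cpt2 Ppara KO and Ppara KO, 111 of 12784 tested genes were called, 59 higher and 52 lower (0.868% of genes tested, 0.462% higher and 0.407% lower). The calls were few beside the 3829 genes with an unadjusted p-value under 0.05 (30% of genes tested), and their adjusted p-values began at 0.011. The rises ran from 1.02 to 4.13 (median 1.87) and the falls from −4.07 to −1.21 (median −2.07). In each of the 111 genes the groups did not overlap, where 9.74% of all tested genes were higher and 9.26% lower without overlap. With the length trend removed, 126 genes were called (0.986%), and 82 of the 111 were among them. The count depended on single libraries. Without Cpt2 Ppara KO replicate 1 it was 12 (0.0919%), without replicate 2 it was 18 and without replicate 3 it was 2, and without Ppara KO replicates 2, 3 and 4 it was 9, 2 and 5. Without Ppara KO replicate 1 or Cpt2 Ppara KO replicate 4, the libraries nearest to the other group on the first component, it was 725 and 636. In each of these 8 fits all 111 genes kept their sign and had an unadjusted p-value under 0.05. Of the 67 of them that are examined by name here, 47 passed the adjusted threshold only in the fits with 725 and 636 calls. The lack of overlap, the kept sign and the unadjusted p-value were close to fixed by choosing these genes in the same libraries. They are therefore no separate support. Cyp2c70 was called in all 8 fits, Slc22a7 in 7 and Cd63 in 6. The adjusted p-value without Cpt2 Ppara KO replicate 1 is given for the main genes below.

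Pparα target genes were examined first, because both groups are labelled as lacking their receptor. Most of them lay below the lowest control library in 7 of the 8 libraries, and Cpt2 Ppara KO replicate 1 was the exception. Ehhadh, the bifunctional enzyme of peroxisomal β-oxidation (chromosome 16 from 21761287 to 21787844), was at 154, 127, 109 and 95.9 CPM in Ppara KO and at 3620, 132, 154 and 170 CPM in Cpt2 Ppara KO, against 3290 ± 1160 CPM in control. Fabp1, the liver fatty acid binding protein, was at 179, 96.3, 34.5 and 15.5 CPM and at 3430, 83.6, 128 and 156 CPM, against 2350 ± 631 CPM in control. In both genes replicate 1 was at control level and the other 3 libraries lay close to or within the range of Ppara KO. Neither was called (Ehhadh 3.04, adjusted p = 0.0891, and Fabp1 3.52, adjusted p = 0.0957), and without replicate 1 the fold changes were 0.30 and 0.58. Acot1, a cytosolic acyl-CoA thioesterase, was at 957 CPM in replicate 1 and at 60.1 to 106 CPM in the others, with 63.9 to 94.8 CPM in Ppara KO. The hepatokine gene Fgf21 was at 92.8 CPM in replicate 1 and at 0.974, 2.09 and 6.71 CPM in the others, against 0.0753 to 1.87 CPM in Ppara KO.

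Of 58 listed targets of Pparα, 54 were tested, and 2 were called, Acaa1b and Aldh3a2, both higher. Their median log2 fold change was 0.995, beside 0.00369 over all genes tested. At an unadjusted p-value under 0.05, 31 were higher and 1 lower, where 15.1% and 14.8% of all tested genes were. The median was 0.35 without Cpt2 Ppara KO replicate 1, with 19 higher and 1 lower (10% and 11.8% of all genes tested in that fit) and none called. With the length trend removed it was 0.81, with 27 higher and 1 lower (11.9% and 13.5% of all genes tested), and 3 were called. Replicate 1 was the highest Cpt2 Ppara KO library in 48 of the 54 genes. It was also the highest in 40 of the 59 genes called higher and the lowest in 36 of the 52 called lower. Among the 54 targets it reached or passed the lowest control library in 32, the other Cpt2 Ppara KO libraries in 10 or 11 and the Ppara KO libraries in 8 to 10. The median log2 difference from the Ppara KO mean was 1.85 in replicate 1 and 0.50, 0.41 and 0.35 in replicates 2 to 4.

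In 18 of the 54 targets all 4 Cpt2 Ppara KO libraries were higher than any Ppara KO library, and in 1 they were lower, where 9.74% and 9.26% of all tested genes were. Among the 18 were both called genes. Acaa1b, a peroxisomal 3-ketoacyl-CoA thiolase (chromosome 9 from 119148023 to 119157093), was at 73.0 to 269 CPM in Ppara KO and at 2090, 807, 851 and 894 CPM in Cpt2 Ppara KO. It rose by 2.62 (SE 0.47, adjusted p = 0.0333), with 2.17 without replicate 1 (adjusted p = 0.059). Aldh3a2, the fatty aldehyde dehydrogenase (chromosome 11 from 61223417 to 61267464), was at 57.7 to 180 CPM and at 1430, 289, 389 and 450 CPM. It rose by 2.73 (SE 0.56, adjusted p = 0.0488), with 1.97 without replicate 1 (adjusted p = 0.0594). Both genes stayed under control in Cpt2 Ppara KO replicates 2 to 4, with control means of 2630 ± 602 and 1010 ± 403 CPM. The ω-hydroxylase gene Cyp4a14 was at 58.0, 4.52, 21.1 and 12.2 CPM in Ppara KO and at 3250, 185, 200 and 294 CPM in Cpt2 Ppara KO, against 8480 ± 1590 CPM in control. Here too the groups did not overlap, and the adjusted p-value was 0.0516 (5.34, SE 1.15) and 0.0761 without replicate 1 (3.24). Vnn1, which encodes the pantetheinase vanin 1, was at 0.0753 to 1.64 CPM and at 37.9, 6.05, 3.59 and 9.93 CPM (4.11, adjusted p = 0.0516), against 172 ± 45.5 CPM in control.

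**Figure D3:**
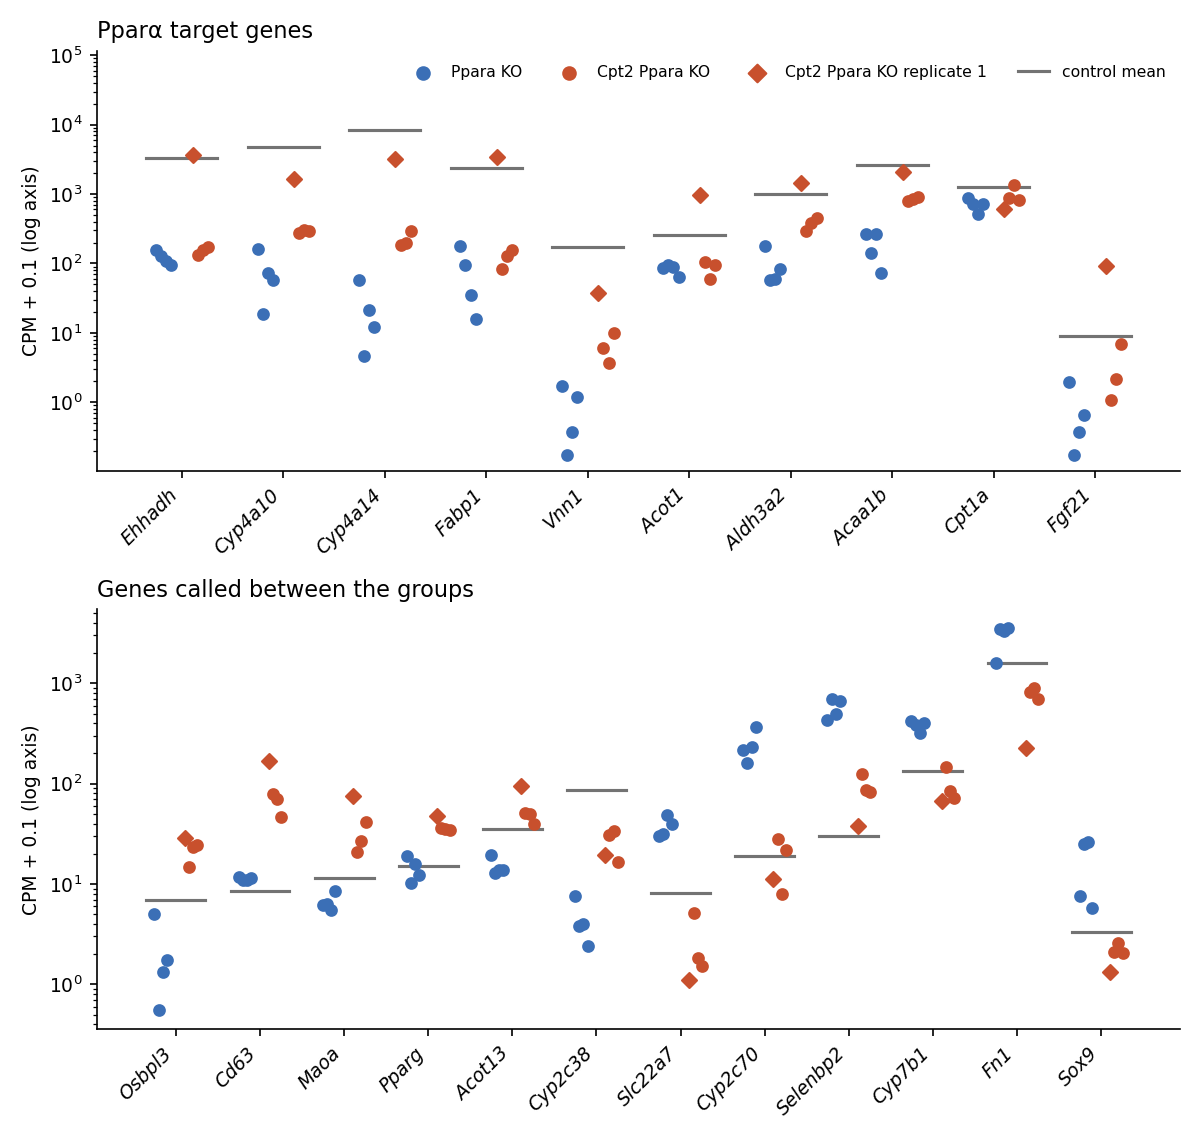
CPM + 0.1 of each library (log y axis) for Pparα targets (top) and genes called between the groups (bottom, with Pparg among them), with Ppara KO in blue, Cpt2 Ppara KO in red, replicate 1 of the latter as a diamond, and the control mean as a line. Replicate 1 reaches the control line for Ehhadh and Fabp1, and the other Cpt2 Ppara KO libraries lie between 83.6 and 170 CPM for these genes.

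Cpt1a and Pdk4 overlapped between the groups. Cpt1a, which makes long-chain acylcarnitines at the outer mitochondrial membrane, was at 869, 715, 511 and 708 CPM in Ppara KO and at 610, 879, 1330 and 827 CPM in Cpt2 Ppara KO (0.36, SE 0.30, adjusted p = 0.441). Pdk4, which encodes a kinase that blocks pyruvate dehydrogenase, was at 22.7, 198, 284 and 16.4 CPM in Ppara KO and at 190, 51.3, 17.2 and 28.4 CPM in Cpt2 Ppara KO, and both groups were split within themselves (−0.89, adjusted p = 0.536). Acsl1, a long-chain acyl-CoA synthetase, was the target whose Cpt2 Ppara KO libraries all lay below Ppara KO, with 387, 332, 356 and 307 CPM against 458, 1210, 775 and 587 CPM (−1.16, adjusted p = 0.07).

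Among the receptors of the family, Pparg was called. Pparγ drives lipid storage genes and is low in normal liver. Pparg (chromosome 6 from 115361221 to 115490401) was at 18.9, 10.2, 15.7 and 12.2 CPM in Ppara KO and at 47.0, 36.2, 35.4 and 34.4 CPM in Cpt2 Ppara KO, a rise of 1.41 (SE 0.23, adjusted p = 0.0307). The groups were well apart and replicates 2 to 4 nearly equal. Without replicate 1 the rise was 1.29 (adjusted p = 0.0575). Ppard, encoding the third receptor, was at 15.8, 19.4, 15.6 and 11.3 CPM and at 4.63, 8.21, 10.9 and 11.5 CPM (−0.83, adjusted p = 0.107). Ppargc1a, a coactivator of these receptors and of mitochondrial biogenesis, was at 6.46 to 13.4 CPM in Ppara KO and at 21.1, 39.9, 37.4 and 17.5 CPM in Cpt2 Ppara KO. Its fold change of 1.60 missed the threshold (adjusted p = 0.0509) and passed it with the length trend removed (1.94, adjusted p = 0.0319). Pparg was the only called gene among 40 tested nuclear receptors and coregulators, whose median was −0.36.

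Among the other called rises was Acot13, a mitochondrial acyl-CoA thioesterase (chromosome 13 from 24817948 to 24831517), at 19.5, 12.9, 13.7 and 13.6 CPM in Ppara KO and at 95.6, 51.4, 49.4 and 39.2 CPM in Cpt2 Ppara KO. It rose by 1.96 (SE 0.29, adjusted p = 0.0219) and by 1.63 without replicate 1 (adjusted p = 0.0226), one of the 12 calls that remained there. Acot13 is short (721 bases), and with the length trend removed the rise was 1.2 (adjusted p = 0.0315), and 1.12 with replicate 1 also left out (adjusted p = 0.0737). Maoa, the monoamine oxidase of the outer mitochondrial membrane, was at 6.07, 6.25, 5.36 and 8.51 CPM and at 76.0, 20.7, 26.8 and 40.9 CPM, a rise of 2.63 (adjusted p = 0.0219) that was 2.15 without replicate 1 (adjusted p = 0.0226). Osbpl3, an oxysterol-binding protein relative (chromosome 6 from 50293330 to 50456201), was at 4.98, 0.452, 1.24 and 1.65 CPM and at 28.5, 14.5, 23.5 and 24.1 CPM (3.38, SE 0.55, adjusted p = 0.0307). Without replicate 1 Osbpl3 was no longer called (3.26, adjusted p = 0.0594). The glutathione transferase genes Gstt2 (1.98, adjusted p = 0.041) and Mgst3 (1.88, adjusted p = 0.034) rose, and so did the mitochondrial isocitrate dehydrogenase gene Idh2, at 44.2 to 78.2 CPM in Ppara KO and 132 to 183 CPM in Cpt2 Ppara KO (1.29, adjusted p = 0.0333). Mgst3 was no longer called with the length trend removed (1.33, adjusted p = 0.0646). Mgst3 and Idh2 were chosen after their values were seen. Of 39 genes of the Nrf2 and glutathione list, 1 was called higher and 1 lower, with a median of 0.33 and of 0.09 with the length trend removed.

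The cytochrome P450 gene Cyp2c38 was at 7.54, 3.69, 3.91 and 2.33 CPM in Ppara KO and at 19.3, 30.6, 33.9 and 16.6 CPM in Cpt2 Ppara KO. This rise of 2.49 (SE 0.37, adjusted p = 0.0223) was 2.60 without replicate 1 (adjusted p = 0.0459), and all 8 libraries were under the control mean of 85.6 ± 36.2 CPM. The related Cyp2c39 rose by 1.87 (adjusted p = 0.0433), from 0.753 to 2.01 CPM to 3.87 to 7.47 CPM, against 304 ± 144 CPM in control. The fold change was 1.67 with the length trend removed and just missed the threshold (adjusted p = 0.0539). Some genes named here have close copies, such as Acot1 and Acot2, Acaa1a and Acaa1b, Selenbp1 and Selenbp2, Cyp4a10 and Cyp4a14 and members of the Cyp2c family, and reads shared among copies could have been split between them.

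Cd63 and Hexa, of the lysosome list, were also called higher. Cd63, a tetraspanin of late endosomes and lysosomes (chromosome 10 from 128908919 to 128912816), was at 11.6, 10.8, 10.9 and 11.4 CPM in Ppara KO and at 168, 77.9, 69.8 and 46.1 CPM in Cpt2 Ppara KO. The Ppara KO libraries hardly differed, and the rise of 3.0 (SE 0.36, adjusted p = 0.0142) was 2.51 without replicate 1 (adjusted p = 0.00282) and 2.3 with the length trend removed (adjusted p = 0.00685). Cd63 is also 1 of the 8 markers of lipid-associated macrophages, and without it their sum in Cpt2 Ppara KO lay within the range of Ppara KO, as given above. The lysosomal hexosaminidase subunit Hexa was at 41.5 to 67.2 CPM and at 90.5 to 128 CPM (1.09, adjusted p = 0.0474, and 0.90 with the length trend removed, adjusted p = 0.0539). Of 43 lysosome and autophagy genes tested, these 2 were called, and the median was 0.12. The called genes Uap1l1, Renbp, Nagk and Galk1 belong to no list used here and were picked with their values known. Uap1l1, a relative of the enzyme that makes UDP-N-acetylglucosamine (chromosome 2 from 25359889 to 25365682), was at 28.6, 7.38, 12.0 and 10.7 CPM and at 87.9, 78.5, 67.2 and 68.8 CPM (2.34, adjusted p = 0.0285). The renin-binding protein gene Renbp, whose product is an N-acetylglucosamine epimerase, rose by 1.60 (adjusted p = 0.0307), the N-acetylglucosamine kinase gene Nagk by 1.71 (adjusted p = 0.0481) and the galactokinase gene Galk1 by 1.47 (adjusted p = 0.0307). None of these 4 was called without replicate 1, with adjusted p-values of 0.0529 to 0.0726, and Nagk stood at 1.51 with the length trend removed (adjusted p = 0.0539).

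The largest fitted rise among the called genes was that of Gipc2, a PDZ-domain protein gene (chromosome 3 from 152093533 to 152166230), from 0.228, 0.0753, 0 and 0.275 CPM to 2.10, 2.23, 4.12 and 2.75 CPM. With Ppara KO near 0, its size is uncertain. The level was low in both groups, but the groups were far apart (4.13, SE 0.61, adjusted p = 0.0219, and 0.0478 without replicate 1). Wfdc2, a secreted protease inhibitor gene, rose from 0.959 to 1.66 CPM to 6.12 to 12.9 CPM (2.59, adjusted p = 0.0195, and 0.036 without replicate 1). Wfdc2 was at 1.94 with the length trend removed (adjusted p = 0.0314), and with replicate 1 also left out at 1.91 (adjusted p = 0.0737). Eda2r, a receptor of the tumor necrosis factor family and a p53 target, rose by 2.87 (adjusted p = 0.0259), as the only called gene of 26 p53 and growth arrest genes tested, whose median was 0.26. S100a11, a calcium-binding protein gene counted among the fibrosis genes, was at 3.16 to 11.7 CPM and at 21.4 to 76.1 CPM (2.54, adjusted p = 0.0437, and 1.54 with the length trend removed, adjusted p = 0.0746). The small heat shock protein gene Hspb1 rose by 1.79 (adjusted p = 0.0307, and 1.22 with the length trend removed, adjusted p = 0.0817). Rragd, a Rag GTPase of amino acid signaling to mTorc1, rose from 3.02 to 5.57 CPM to 9.41 to 13.9 CPM (1.45, adjusted p = 0.039). The Kupffer cell complement receptor gene Vsig4 was at 9.96 to 15.2 CPM and at 35.1, 34, 33.6 and 21.7 CPM (1.28, adjusted p = 0.0333), as 1 called gene of 12 macrophage markers, while Clec4f of the same list was at 88.9 to 117 CPM and 101 to 144 CPM (0.17, adjusted p = 0.604). Of these 12 markers 11 had a fold change above 0, and their sum without Vsig4 was 317 to 441 against 449 to 591 CPM. At an unadjusted p-value under 0.05, 5 were higher and none lower, where 15.1% and 14.8% of all tested genes were. The median of the 12 markers was 0.30, and 0.16 with the length trend removed and 0.15 with replicate 1 also left out. Igkc, the immunoglobulin κ constant gene, rose by 2.13, from 0.548 to 1.13 CPM to 2.46 to 5.74 CPM (adjusted p = 0.0457, and 1.37 with the length trend removed, adjusted p = 0.126), beside a summed B and plasma cell marker level of 1.30 to 2.06 CPM in Ppara KO and 3.20 to 4.89 CPM in Cpt2 Ppara KO.

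Among the falls, Slc22a7 and Cyp2c70 had the smallest adjusted p-value of all genes tested. Slc22a7, the organic anion transporter 2 (chromosome 17 from 46432185 to 46438477), was at 29.8, 31.5, 48.8 and 39.3 CPM in Ppara KO and at 1.01, 5.08, 1.73 and 1.44 CPM in Cpt2 Ppara KO. It fell by 4.04 (SE 0.46, adjusted p = 0.011), with −3.81 without replicate 1 (adjusted p = 0.0226) and 8.04 ± 2.01 CPM in control. Cyp2c70, which makes muricholic acids in mice (chromosome 19 from 40153353 to 40187333), was at 217, 162, 231 and 365 CPM and at 11.2, 28.0, 7.89 and 21.7 CPM. It fell by 3.84 (SE 0.43, adjusted p = 0.011), with −3.68 without replicate 1 (adjusted p = 0.0226). The control mean of 19.1 ± 8.15 CPM was in the range of Cpt2 Ppara KO, and it was Ppara KO that stood above. Cyp7b1, the oxysterol 7α-hydroxylase of the alternative bile acid pathway (chromosome 3 from 18071950 to 18243338), was at 425, 382, 319 and 403 CPM and at 67.8, 145, 85.1 and 71.8 CPM. Its fall of 2.07 (SE 0.29, adjusted p = 0.0201) was −1.95 without replicate 1 (adjusted p = 0.0459). Abca1, the cholesterol exporter, was at 186, 357, 357 and 303 CPM and at 52.9, 86.3, 101 and 131 CPM (−1.72, adjusted p = 0.0397, and −1.24 with the length trend removed, adjusted p = 0.0515). The control means of Cyp7b1 and Abca1 were 134 ± 51.2 and 144 ± 22.1 CPM, below every Ppara KO library. Cyp7b1 and Abca1 were the 2 called genes of 24 bile acid and sterol genes tested, with a median of −0.29.

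Selenbp2, a selenium-binding protein gene (chromosome 3 from 94693556 to 94704413), was at 426, 701, 491 and 663 CPM in Ppara KO and at 37.6, 124, 85.5 and 82.0 CPM in Cpt2 Ppara KO. It fell by 2.82 (SE 0.37, adjusted p = 0.0195), with −2.58 without replicate 1 (adjusted p = 0.0226). Control livers were at 29.8 ± 38.5 CPM, and Ppara KO stood above all of them (at most 87.3 CPM). Together with Cyp7b1 it was called among 27 male-biased liver genes, whose median was −1.03, with 1 higher and 14 lower at an unadjusted p-value under 0.05 (14.8% of all genes were lower), and −1.12 without replicate 1. With the length trend removed, 20 were lower (13.5% of all genes) and 5 were called. Of 24 female-biased genes 10 were tested and none was called, with a median of 0.62. At an unadjusted p-value under 0.05, 4 of them were higher and 3 lower, where 15.1% and 14.8% of all genes were. All mice were males, and genes of this list are known to depend on the male pattern of growth hormone release. Bhmt, which remethylates homocysteine, fell by 1.64, from 2940 to 4900 CPM to 856 to 1390 CPM (adjusted p = 0.0333), with 4260 ± 2150 CPM in control. It was the only call among 45 genes of amino acid catabolism and the urea cycle, whose median was −0.15. The carboxylesterase genes Ces3b (−1.86, adjusted p = 0.0333) and Ces2c (−1.66, adjusted p = 0.0219) fell, as did Enpp2, which encodes autotaxin (−1.5, adjusted p = 0.0451).

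The matrix genes Fn1, Thbs1 and Adamts9 and the mesenchymal genes Reln and Pdgfra fell, while the summed macrophage markers stood higher, as given above. Fn1, encoding fibronectin, which hepatocytes secrete into plasma (chromosome 1 from 71585520 to 71653200), was at 1580, 3490, 3350 and 3540 CPM in Ppara KO and at 229, 824, 906 and 698 CPM in Cpt2 Ppara KO (−2.19, SE 0.44, adjusted p = 0.0462, and 0.0575 without replicate 1). Thbs1, the matrix protein thrombospondin 1, was at 3.79 to 7.23 CPM and at 1.11 to 2.09 CPM (−1.98, adjusted p = 0.0307). The metalloproteinase gene Adamts9 was at 2.83, 8.13, 5.29 and 2.33 CPM and at 0.217, 0.417, 0.239 and 0.420 CPM (−3.82, adjusted p = 0.0195). Its control mean of 1.08 ± 0.327 CPM lay between the groups. Reln, a stellate cell marker, was at 70.3 to 84.6 CPM and at 9.70, 21.4, 26.6 and 39.4 CPM (−1.71, adjusted p = 0.0474). Pdgfra, a growth factor receptor of mesenchymal cells, fell by 1.21 (adjusted p = 0.0333). Of 33 fibrosis genes tested, 1 was called higher (S100a11) and 2 lower (Fn1 and Thbs1), with a median of −0.61. At an unadjusted p-value under 0.05, 4 were higher and 13 lower, where 15.1% and 14.8% of all tested genes were. None of the 33 was called without replicate 1. Col1a1, the main fibrillar collagen gene, was at 2.26 to 15.2 CPM and at 1.23 to 4.12 CPM (−1.35, adjusted p = 0.141). Of 8 stellate cell markers, 1 was higher and 3 lower at an unadjusted p-value under 0.05, beside the same shares of all genes. Their sum without Reln overlapped between the groups, as given above.

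Sox9, a transcription factor of cholangiocytes and of some periportal hepatocytes, was at 7.54, 25.1, 26 and 5.63 CPM in Ppara KO and at 1.23, 2.02, 2.51 and 1.96 CPM in Cpt2 Ppara KO. It fell by 3.07 (SE 0.52, adjusted p = 0.0307), with −2.92 without replicate 1 (adjusted p = 0.0618), and it is 1 of the 7 cholangiocyte markers summed above. The control mean of Sox9 was 3.23 ± 0.915 CPM, below every Ppara KO library. Ppara KO replicates 2 and 3 were the high libraries, as they were for the clock gene Arntl (8.54, 41.0, 35.2 and 11.8 CPM) and for Sds, the serine dehydratase of gluconeogenesis (59.5, 600, 349 and 61.8 CPM). Arntl (−1.76, adjusted p = 0.0953) and Sds (−1.07, adjusted p = 0.391) were not called. The muscle genes Myom3 (−3.89, adjusted p = 0.0195) and Xirp1 (−3.87, adjusted p = 0.0333) fell from levels of 10.3 to 42.4 CPM and 0.868 to 11.3 CPM. Their control means of 2.4 ± 2.22 and 0.493 ± 0.263 CPM lay below these levels. The summed skeletal muscle markers were at 0.226 to 0.962 CPM in Ppara KO and at 0.278 to 22.2 CPM in Cpt2 Ppara KO, so they did not move with these falls. Ptges, a prostaglandin E synthase gene, was at 1.42 to 3.57 CPM in Ppara KO and at 0, 0.0696, 0 and 0.466 CPM in Cpt2 Ppara KO (−4.07, adjusted p = 0.0433), and 2 antiviral genes fell, Oasl1 by 2.51 (adjusted p = 0.0397) and Rsad2 by 2.26 (adjusted p = 0.0307). Control means of Ptges, Oasl1 and Rsad2 were 0.301 ± 0.269, 6.44 ± 1.55 and 12.3 ± 5.24 CPM, below every Ppara KO library.

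The gene lists were read by their medians and by counts at an unadjusted p-value under 0.05, beside a median of 0.00369 and shares of 15.1% higher and 14.8% lower over all genes. Mitochondrial β-oxidation had a median of 0.64, with 12 of 24 genes higher, none lower and none called, and a median of 0.39 with 8 higher and 1 lower without Cpt2 Ppara KO replicate 1. Slc25a20, the carnitine-acylcarnitine carrier, followed replicate 1, with 271, 94.6, 71.2 and 57.1 CPM against 52.8 to 62.1 CPM in Ppara KO (1.09, adjusted p = 0.121). Ketogenesis had a median of 0.86 over 8 genes, with 5 higher and 1 lower. Peroxisomal β-oxidation and biogenesis had a median of 0.35, with 12 of 36 genes higher and 1 called, Acaa1b, and without replicate 1 it had 0.24, with 5 higher and none called. The respiratory chain showed a median of 0.61, with 29 of 62 genes higher and 1 lower, but its genes are short (median 1062.5 bases, against 3075 over all genes), and with the length trend removed its median was 0.03, with 9 higher and 4 lower. Without replicate 1, 13 were higher. Lipid droplet and triglyceride storage genes had a median of 0.21, with 9 of 30 higher and 2 lower, and the median turned to −0.07 without replicate 1 (7 higher and 2 lower) and was 0.02 with the length trend removed. Among them Plin2, the main lipid droplet coat, was at 1230, 500, 1060 and 689 CPM in Ppara KO and at 2780, 931, 760 and 1240 CPM in Cpt2 Ppara KO (0.70, adjusted p = 0.3).

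On the low side were secretory and defence lists. Endoplasmic reticulum chaperones had a median of −0.72, with 1 of 26 genes higher and 13 lower and none called. Hspa5, the master chaperone BiP, was at 2080, 4750, 7440 and 9920 CPM in Ppara KO and at 1090, 2650, 1020 and 1640 CPM in Cpt2 Ppara KO (−1.94, SE 0.49, adjusted p = 0.0598), against 795 ± 218 CPM in control. All Ppara KO libraries were thus above the control mean, and Cpt2 Ppara KO lay lower, with an overlap at replicate 2. Syvn1, a ubiquitin ligase of the same organelle, was at 183 to 279 CPM and at 25.3, 66.0, 82.7 and 111 CPM (−1.71, adjusted p = 0.0534). Acute phase and complement genes had a median of −0.86, with none of 33 higher and 17 lower (23 with the length trend removed), and the fibrinogen genes stood at −1.90 (Fga, adjusted p = 0.0527), −1.72 (Fgb, adjusted p = 0.0663) and −2.02 (Fgg, adjusted p = 0.0593). Saa1, a serum amyloid gene of the same list, was at 84.7 to 230 CPM and at 148, 562, 69.5 and 34.3 CPM (0.39, adjusted p = 0.728), with a sign that turned in several settings. Interferon response genes had a median of −0.65, with none of 35 higher, 13 lower and 2 called, and without replicate 1 there were 8 lower and none called. The P450 and conjugation genes had a median of −0.57, with 5 of 50 higher and 17 lower (25 with the length trend removed), and calls of Cyp2c38 and Cyp2c39 higher and Cyp2c70 lower. The integrated stress response, which Atf4 drives, had a median of −0.12, with 6 of 42 genes higher and 9 lower. Atf4 was at 117 to 283 CPM and at 127 to 238 CPM (−0.15, adjusted p = 0.781, and 0.12 without Ppara KO replicate 3), and its target Nupr1 was at 17.9, 2.03, 4.88 and 3.23 CPM and at 163, 36.5, 29.2 and 78.4 CPM (3.42, adjusted p = 0.0516).

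**Figure D4:**
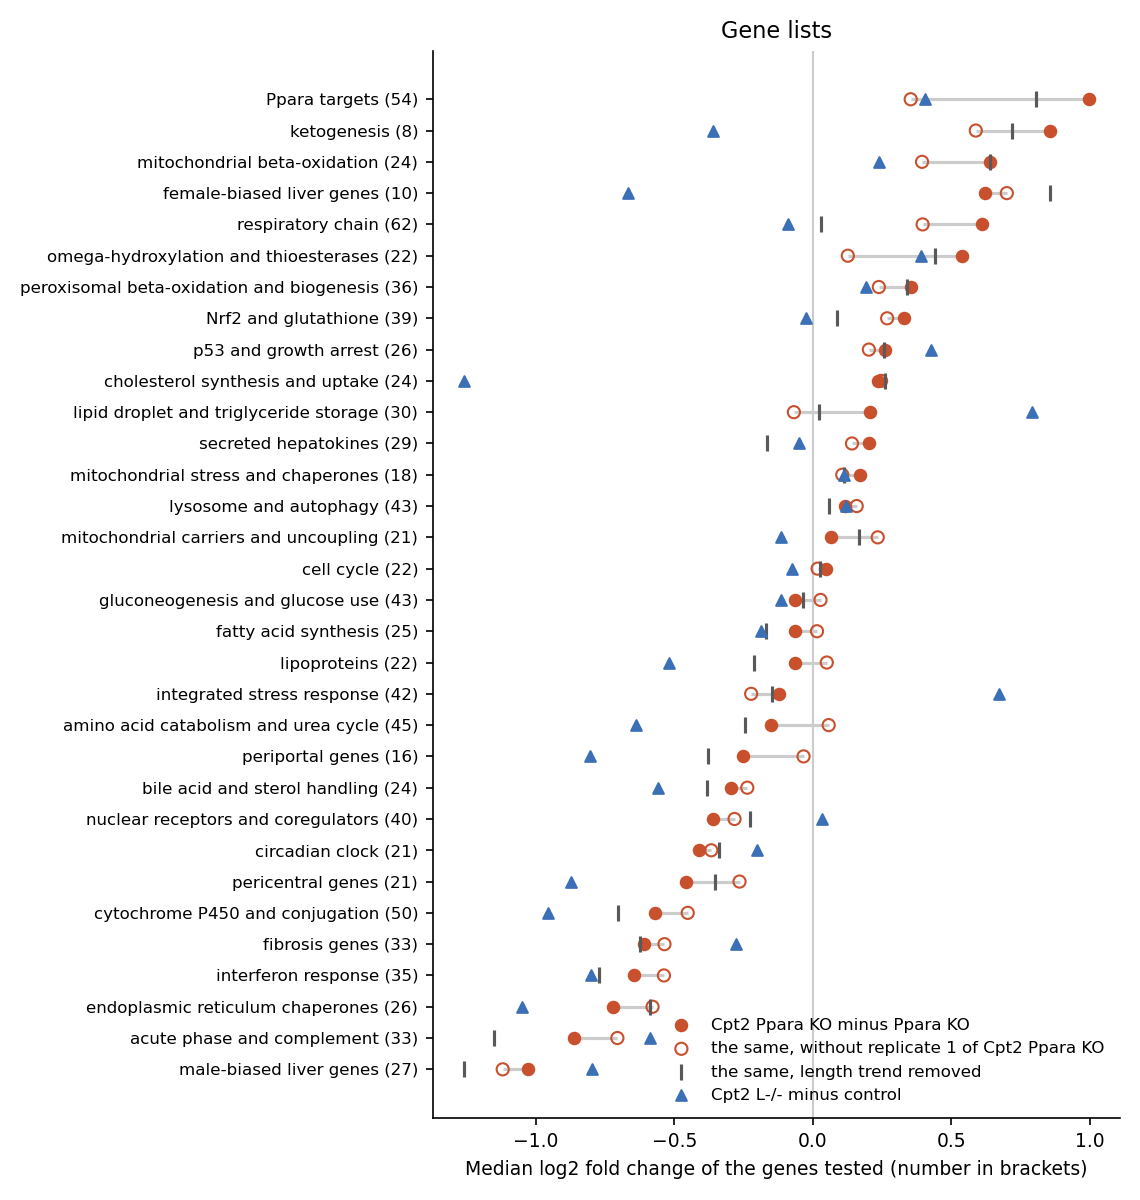
Median log2 fold change (x axis) of 32 gene lists (y axis, genes tested in brackets) between Cpt2 Ppara KO and Ppara KO, the same without Cpt2 Ppara KO replicate 1 and with the length trend removed, and between Cpt2 L-/- and control. Pparα targets move from 0.995 to 0.35 without replicate 1, and the respiratory chain from 0.61 to 0.03 with the length trend removed.

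The change with loss of Cpt2 was set beside that in livers with Ppara, in a fit of 16 libraries in 4 groups, whose interaction term is the difference between the 2 changes. Between Cpt2 L-/- and control, 2276 of 13615 genes were called (16.7%, with 8.7% higher and 8.02% lower), and the interaction was called for 3270 (24%, with 12% of each sign). Across 12784 genes the 2 changes, which share no library but come from one table, had a Pearson correlation of 0.0778 and a Spearman correlation of −0.0309. Of the 59 genes called higher without Ppara, 16 (27.1%) were also called higher with Ppara and 6 were called lower, and of the 52 called lower, 12 (23.1%) were called lower and 5 higher. These were 1.39% of the 1149 higher and 1.16% of the 1031 lower genes that were called with Ppara and tested in both fits. The calls without Ppara came from the fit of 8 libraries. The fit of 16 libraries called 3475 genes for that comparison, beside the 2276 with Ppara. These shares therefore depend on the fit and do not measure how much of the response was shared. The interaction was called for 42 of the 59 and 35 of the 52. These genes were chosen by a change that enters the term, so shares above the 24% of all genes follow in part from that choice. The Cpt2 L-/- libraries and the 8 libraries labelled Ppara KO or Cpt2 Ppara KO also shared lower counts than control of Cd1d2, Rps3a3, Hist1h2bq, Hist1h2al and Gm6472. These 5 genes were chosen after their values were seen. In the 8 libraries Cd1d2, Rps3a3 and Gm6472 were at most at 0.828, 3.48 and 3.04 CPM. Control libraries had 18.9 to 60.7, 41.5 to 91.9 and 14.9 to 24 CPM of them. What sets control livers apart in these genes was not tested, and it cannot be told apart from genotype in the comparison of Cpt2 L-/- with control, nor in the interaction.

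Some genes rose in both settings. Osbpl3 rose by 2.76 with Ppara (adjusted p = 0.000594), to 47.5 ± 1.17 CPM in Cpt2 L-/-, and Uap1l1 by 2.30 (adjusted p = 8.08e-05). Their interactions were 0.59 (adjusted p = 0.528) and 0.04 (adjusted p = 0.956), and those of the called rises Hspb1 and Cd63 were −0.91 (adjusted p = 0.065) and 1.27 (adjusted p = 0.0803). A p-value over the threshold does not show that the changes were equal. Cyp7b1 fell in both settings, by 1.37 with Ppara (adjusted p = 0.0227) and with an interaction of −0.70 (adjusted p = 0.369), and so did Enpp2, with an interaction of 0.03 (adjusted p = 0.955).

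Others differed between the settings. Acot13 was at 36.9 ± 4.87 CPM in Cpt2 L-/- and 35 ± 2.95 CPM in control, and its interaction was 1.91 (adjusted p = 0.000906). The interactions of Gipc2 (3.59, adjusted p = 0.0183), Idh2 (1.20, adjusted p = 0.00675) and Vsig4 (1.46, adjusted p = 0.00419) had the same sign. Cyp2c39 and Cyp2c38 fell with loss of Cpt2 where Ppara was present, by 6.94 and 3.22, and rose where it was absent, with interactions of 8.80 (adjusted p = 9.58e-08) and 5.70 (adjusted p = 3.73e-06). Cyp2c39 was high in control alone, with at most 3.74 CPM in Cpt2 L-/- and at most 7.47 CPM in the 8 other libraries, so that its fall has the pattern of the 5 genes above. In the other direction, Tacc2, a centrosomal protein gene, rose by 1.67 with Ppara and fell by 1.44 without it (interaction −3.10, adjusted p = 4.36e-05), a fall no longer called with the length trend removed (−0.98, adjusted p = 0.065). Likewise Rrp12, a ribosome assembly factor gene, rose by 1.72 and fell by 1.25 (interaction −2.98, adjusted p = 9.35e-05). Slc22a7 fell in both, by 1.97 and 4.04, and the difference was called (−2.08, adjusted p = 0.0176).

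For lipid storage, stress and sterol genes the interaction was counted over the lists. With Ppara, 15 of 30 lipid droplet genes were called higher and none lower, and the interaction was lower for 8 and higher for 2. Plin2 rose by 2.68 with Ppara (interaction −1.99, adjusted p = 0.00936). For the integrated stress response 16 genes were called higher and 1 lower with Ppara, and the interaction was lower for 14 and higher for 1. Atf3 rose by 4.68 and Gdf15 by 3.14 with Ppara, from control levels of 1.33 ± 0.71 and 6.41 ± 3.48 CPM, while Ppara KO livers already had 9.41 to 31.3 CPM of Atf3 and 26.8 to 427 CPM of Gdf15 (interactions −3.70 and −4.58, adjusted p = 0.00075 and 0.00372). Pdk4 rose by 4.97 with Ppara (interaction −5.86, adjusted p = 0.00334). Of 24 cholesterol synthesis and uptake genes, 15 were called lower with Ppara and none higher, and the interaction was higher for 12. Idi1, an isomerase of the mevalonate pathway, fell by 3.11 with Ppara and was at 3.09 to 13.7 CPM in Ppara KO and 6.54 to 28.2 CPM in Cpt2 Ppara KO (1.25, adjusted p = 0.129, interaction 4.35, adjusted p = 0.0052). Of the Pparα targets, 16 were called higher with Ppara. In the same fit of 16 libraries, 27 were called higher and 1 lower between Cpt2 Ppara KO and Ppara KO. That comparison, with replicate 1 included, called 3475 of 13615 genes in this fit. The interaction was higher for 9 and lower for 8 of 54 targets, where 12% of all genes were called in each direction. Without Cpt2 Ppara KO replicate 1 it was higher for 8 and lower for 16, where 10.6% and 11.6% of all genes were. The interaction of Cyp4a14 was 4.88 (adjusted p = 0.00886), and 2.77 without replicate 1 (adjusted p = 0.0127). For the lipid droplet list it was then lower for 9 and higher for 2, for the integrated stress response lower for 17 and higher for 1, and for cholesterol synthesis and uptake higher for 11.

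**Figure D5:**
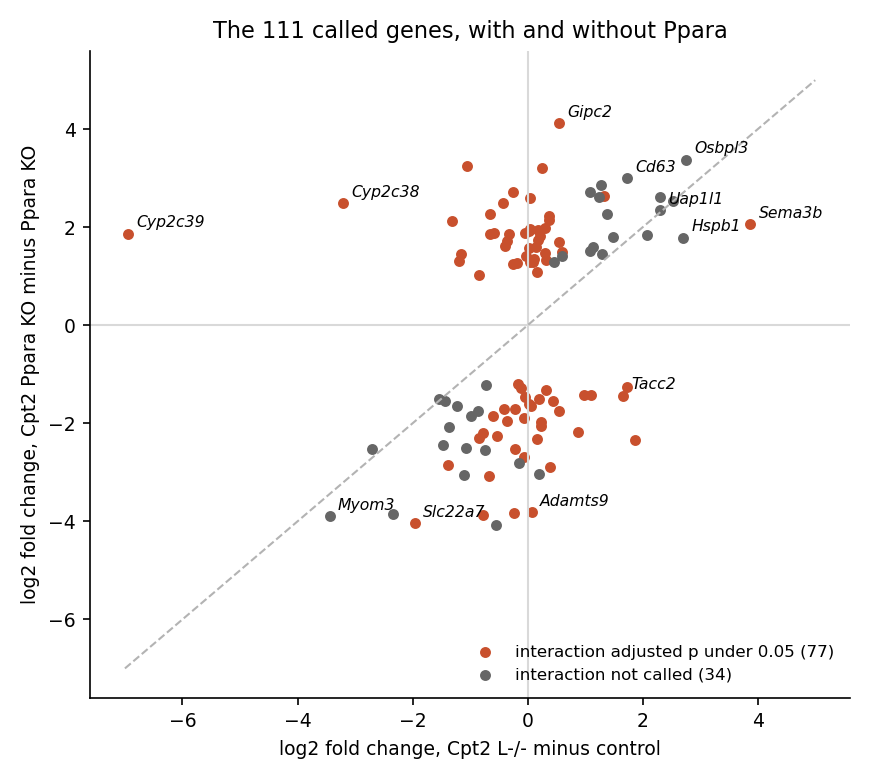
Log2 fold change with loss of Cpt2 in livers with Ppara (x axis, Cpt2 L-/- minus control) and without it (y axis, Cpt2 Ppara KO minus Ppara KO) for the 111 called genes, with the dashed line marking equal changes. The interaction was called for 77 of them (red), among which Cyp2c39 and Cyp2c38 lie at the upper left.

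Promoters of these genes were searched for the recognition sequence of Ppar and retinoid X receptor dimers because some listed Pparα targets were higher in Cpt2 Ppara KO, of which the 2 called ones were not called without replicate 1. The letters searched were AGGNCANAGGNCA on both strands, in the 250 bases before the RefSeq start of each gene in GRCm38.p6. They occurred in 108 of 27025 promoters (0.4%), in none of the 40 matched promoters of genes called higher or the 35 of genes called lower, and in 1 of 44 matched promoters of Pparα targets. That promoter was of Fabp1, whose 4 Cpt2 Ppara KO values are given above, and its match begins 67 bases before the RefSeq start, in chr6:71199804-71199833. The sequence is printed on the plus strand with the match in capitals, and the searched letters read on the minus strand, as the reverse complement of the capitals:
Fabp1: acaatcacTGACCTATGGCCTatatctgag
The deposited table starts Fabp1 at 71199827, inside this stretch. A match is a description of the sequence, and no match says only that these letters are not in this window.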

How the data were processed

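RNA-seq of fasted mouse livers was analyzed in the 8 libraries of Ppara KO and Cpt2 Ppara KO mice, with 8 libraries of control and Cpt2 L-/- mice for comparison. Libraries were stranded mRNA libraries read as single 75-base reads. The authors deposited raw read counts per gene, without normalization, for 35275 Ensembl genes. They also deposited FPKM values, which equaled the counts divided by gene length and library total for 100% of genes (tolerance 0.01). The submitters' processing notes name Bowtie 0.12.2, TopHat, STAR 2.5, STAR-Fusion, HTSeq 0.6.1, DESeq2 and edgeR and the builds mm8 and mm9 without roles. The coordinates in the table match GRCm38 (99.95% of 34490 shared identifiers on the same chromosome), and the strand setting of counting is not given in the sources used here.

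Counts were tested with edgeR 4.0.16 in R 4.3.3 (filterByExpr, minimum count 10 and minimum total count 15, TMM, robust glmQLFit and glmQLFTest) without covariates, in a fit of 8 libraries for Cpt2 Ppara KO against Ppara KO and of 16 libraries in 4 groups for Cpt2 L-/- against control and the interaction. The Benjamini-Hochberg adjustment covered all genes tested, and the threshold was 0.05. CPM were scaled by TMM over all 24 libraries, and principal components used log2 CPM with a prior count of 2. No library pair within a group was a duplicate by a chi-square test of counts. Intervals and floors from counts would cover counting error only, and replicate spread is given instead. A group was taken as at the floor where none of its libraries had over 3 counts of a gene, which held for none of the called genes.

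The comparison, the gene lists and the marker lists were chosen with earlier results of these data known. Genes were named by rule: Cpt2 and Ppara, the 15 largest rises and 15 largest falls among called, non-overlapping genes with a mean of at least 1 CPM, up to 4 called members of each list or else its first 2 tested members, the 5 largest interactions of each sign, Ppard, Pparg and the 10 most abundant called genes. A further 45 genes were chosen after their values were seen, among them Ehhadh, Fabp1, Cyp4a14, Vnn1, Acot1, Pdk4, Acsl1, Ppargc1a, Uap1l1, Renbp, Nagk, Galk1, Idh2, Mgst3, Hspb1, Rragd, Igkc, Pdgfra, Ces2c, Tacc2, Rrp12, Idi1, Nupr1, Syvn1, Fga, Fgb, Fgg and Clec4f. On simulated counts for 12594 genes the 8-library fit recovered 94 of 100 genes changed by a log2 fold change of 2 and 21 of 100 changed by 1, with 3 unchanged genes called. For the interaction, over 13430 genes, 88 and 14 of 100 were recovered, with 5 unchanged genes called. These rates describe the simulated counts only. Whether they hold for the real libraries was not tested. In those, Cpt2 Ppara KO replicate 1 stood apart and gene length moved with the groups. Leaving out single libraries gave 2 to 725 calls between Cpt2 Ppara KO and Ppara KO.

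Alternatives were RLE size factors, no filter, DESeq2 1.42.0, fits of 24 or 16 libraries, the replicate number as a block, limma 3.58.1 on log2(FPKM + 1) and log2(FPKM + 0.1), a required log2 fold change of 1 in size, and leaving out each library. Removal of the length trend (lowess of log2 CPM deviation on log10 gene length, span 0.3, as an offset) was added after seeing the data, alone and without Cpt2 Ppara KO replicate 1, as were marker sums without called members. Columns of the authors' own comparisons were not used, and some genes are not reported here. Promoter sequences are from RefSeq (GRCm38.p6).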

Additional observations from a re-analysis of the deposited data

Results flagged for a closer look

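In groups of 4 libraries, a library was singled out where its gap to the nearest other library exceeded 0.829 of the range of its group. Of 298 groups (149 genes in each of Ppara KO and Cpt2 Ppara KO), 25 were singled out, and chance gives about 1 in 20. Genes of 1 library are not independent and some of these genes were picked with their values known, so these shares cannot be set against each other. Cpt2 Ppara KO replicate 1 was the library in 9 of them, for Cpt2 (126 CPM), Acaa1b (2090 CPM), Bhmt (856 CPM), Pparg (47.0 CPM), Aqp3 (0.724 CPM), Ehhadh (3620 CPM), Cyp4a10 (1630 CPM), Cyp4a14 (3250 CPM) and Fabp1 (3430 CPM). It was the lowest library for Bhmt and the highest for the others. Ppara KO replicate 4 was singled out for Mki67 (3.23 CPM), Clock (71.1 CPM), Ndufa2 (26.9 CPM, the lowest), Aqp3 (4.81 CPM) and Acta2 (31.4 CPM). Ppara KO replicate 1 was singled out for Proca1 (0.365 CPM), Acot13 (19.5 CPM) and Fn1 (1580 CPM, the lowest), and Ppara KO replicate 2 for Enpp2 (132 CPM, the lowest) and Hist1h2bq (0.0753 CPM). The others were Cpt2 Ppara KO replicate 2 for Bdh1 (98.0 CPM, the lowest), replicate 3 for Slc44a3 (3.53 CPM, the lowest), Igkc (5.74 CPM) and Hist1h2al (0.179 CPM), and replicate 4 for Vsig4 (21.7 CPM, the lowest) and Hist1h2bq (0.0932 CPM).

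By the labels, the change with loss of Cpt2 differed between livers without and with Ppara for 3270 genes by the interaction term of edgeR at an adjusted p-value under 0.05, and without Cpt2 Ppara KO replicate 1 for 1479 genes with a positive and 1617 with a negative sign. Of the genes named here, the term was positive for Gipc2 (3.59), Maoa (1.30), Acot13 (1.91), Cyp2c38 (5.70), Cyp2c39 (8.80), Slc44a3 (2.62), Idi1 (4.35), Cyp4a14 (4.88), Vsig4 (1.46), Galk1 (1.16), Idh2 (1.20), Wfdc2 (2.55), Gstt2 (1.67), Hexa (0.92), Vnn1 (3.92), Ppargc1a (1.70), Nagk (1.17), Mgst3 (1.91), Igkc (3.46), Proca1 (4.29), Cyp4a10 (2.59), Ndufa2 (1.28), Ndufa1 (1.19) and Bdh1 (2.19). It was negative for Slc22a7 (−2.08), Adamts9 (−3.89), Cxcl14 (−3.59), Sox9 (−2.40), Rrp12 (−2.98), Tacc2 (−3.10), Pdgfra (−1.05), Abca1 (−1.5), Thbs1 (−2.21), Col4a1 (−2.89), Plin2 (−1.99), Pdk4 (−5.86), Atf3 (−3.70), Gdf15 (−4.58), Xirp1 (−3.09), Rsad2 (−1.73), Fn1 (−1.43), Reln (−1.31), Ppard (−1.32), Acsl1 (−1.42), Syvn1 (−1.24), Ucp2 (−1.35) and Ces2c (−1.72). Without Cpt2 Ppara KO replicate 1 all of these kept their sign, and the term was no longer called for Maoa (0.82, adjusted p = 0.0915), Nagk (0.83, adjusted p = 0.0901), Cyp4a10 (1.49, adjusted p = 0.0894) and Ndufa1 (0.955, adjusted p = 0.056). It was also called for genes at a low level in at least 1 group, whose fitted size depends on the prior count and is no measure of the change, namely Cd1d2 (5.4), Rps3a3 (7.39), Hist1h2bq (8.95), Hist1h2al (6.4), Gm6472 (6.34), Slc7a11 (−9.91) and Aqp3 (−7.71). Some genes of the lists above had such low levels too. The lowest group means of Gipc2, Proca1, Adamts9 and Xirp1 were 0.145, 0.251, 0.323 and 0.29 CPM, so the size of their terms is likewise uncertain.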

How the results depend on the processing

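The count of 111 genes between Cpt2 Ppara KO and Ppara KO was 115 with RLE size factors and 126 with the length trend removed, and it was 368 without a filter, 2028 with DESeq2, 4311 with all 24 libraries in the fit, 3475 with 16 libraries, 208 and 196 with limma on log2(FPKM + 1) and log2(FPKM + 0.1), and 16 with the length trend removed and Cpt2 Ppara KO replicate 1 left out. The limma fits split the calls into 147 higher and 61 lower (log2(FPKM + 1)) and 139 higher and 57 lower (log2(FPKM + 0.1)), against 59 and 52. With the length trend removed the split was 55 and 71, and with it removed and replicate 1 left out 6 and 10. Leaving out single libraries gave 2 to 725 genes. The cause of these differences in count was not tested. Between 100 and 111 of the 111 genes were called in the fits with other tools, filters or more libraries, and all kept their sign. A fit with the replicate number as a block called 916 genes, with all 111 among them, but same-numbered libraries deviated together only weakly (correlations 0.122, 0.124, −0.103 and 0.0987, and only replicates 2 and 4 correlated best with their own number), so the numbers were not taken as pairs. For Cpt2 L-/- against control the count of 2276 was 1240 with a required log2 fold change of 1 in size and 1537 to 2926 when libraries were left out, and for the interaction the count of 3270 became 2396 to 3767.

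Among 145 named genes with a test, the sign turned in few. With the length trend removed, it turned for Apoa2 (−0.55), Saa1 (−0.39), Clock (0.25), Ndufa1 (−0.08), Ttr (−0.37) and S100a9 (−0.23), and with replicate 1 also left out for Apoa2 (−0.42), Saa1 (−0.16), Ndufa1 (−0.04), Ttr (−0.27), S100a9 (−0.11) and Acot1 (−0.17). Saa1 was at −0.34 with the block and at −0.20 and −0.21 in limma, and Ucp2 at 0.01 in both limma fits. Leaving out single libraries gave both signs for Cpt2 (−0.70 to 0.32), Apoa2 (−0.03 to 0.36), Atf4 (−0.38 to 0.12), Saa1 (−0.89 to 0.72), Saa2 (−1.23 to 0.30), Ucp2 (−0.35 to 0.17), Ttr (−0.19 to 0.22) and Slc7a11 (−1.51 to 0.36). None of these genes was called. Depth limits genes near 1 CPM, such as Gipc2 and Ptges, which rest on few reads.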
